A study of Mus musculus with 8 samples.

Results

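The genes described here are 38 factors of ribosome biogenesis, the nucleolar work of transcribing, modifying, trimming and packaging ribosomal RNA. They were listed by symbol, by a rule that uses no measured value but was set with earlier results of these samples known, and each was represented by the probe set of its own with the highest mean over all arrays. A probe set of their own was present for 37 of the 38, and all 37 were among the 13196 genes tested, out of 18193 genes represented on the array. The remaining member, Mrto4, had only a probe set that is also annotated to pseudogenes and is not given a value.

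RNA was measured on 8 single-colour arrays. CT26 is an established line of mouse colon tumour epithelial cells and RAW is an established line of mouse macrophages, and no group carried an added allele or agent. Both lines were kept in RPMI 1640 medium, CT26 cells in 12-well plates and RAW cells on transwell inserts, whose porous membrane lets secreted molecules pass but keeps the cells apart. There were 4 groups of 2 arrays, 1 array from each of 2 experiments: CT26 grown alone, CT26 grown below inserts with RAW cells, RAW grown alone, and RAW grown above CT26 cells, the inserts being set into the wells once 8 hours had passed since seeding. Trypsin was used to detach CT26 cells ahead of lysis, while TRIzol went directly onto RAW cells in their inserts. Line, growth surface (plate or insert) and harvest therefore cannot be told apart. The labels do not say how many wells made up a sample, and the p-values below measure the spread between samples of 2 experiments. Each line stands for itself as a model: neither a tumour nor a resident macrophage was sampled.

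As background, ribosome production begins with RNA polymerase I, which copies the ribosomal DNA repeats into a long precursor. Small nucleolar ribonucleoproteins (snoRNPs) of the box C/D and box H/ACA classes then methylate its riboses and turn uridines into pseudouridines, the small subunit processome and the large subunit factors fold and cut it, and export factors carry the subunits to the cytoplasm. The pathway is costly for the cell, is raised in growing and tumour cells, and many of its genes are known to be bound by the transcription factor MYC at the E-box motif CACGTG.

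The arrays told the lines apart, although not by every marker. All 12 macrophage markers were called higher in RAW cells grown alone, and their mean level was 12.70 to 12.82 on RAW arrays against 5.85 to 5.93 on CT26 arrays (log2 expression), where 8 of the 12 in CT26 alone and 6 in CT26 co-culture exceeded a floor, the 40th percentile of each array's values, on both arrays. Itgam and Ptprc lay below it on all 4 CT26 arrays, at 4.71 and less, and Fcgr1 and Tyrobp exceeded it on 1 CT26 alone array each, at 5.44 and 5.71. Cd14 was far above the floor in both lines, at 10.04 to 10.29 on CT26 arrays and 14.43 to 14.75 on RAW arrays. Of 10 CT26 markers 9 were tested, and 6 were called lower in RAW alone. The mean of the 10 was 8.95 to 9.20 on CT26 arrays against 5.35 to 5.42 on RAW arrays. Krt20, Tjp1, Krt18, Col1a1, Col1a2 and Sparc made this gap: cultures without a partner averaged at least 9.10 for CT26 and at most 6.42 for RAW. Epcam (6.87 for CT26, 6.88 for RAW), Krt8 (5.93, 5.80) and Krt19 (5.53, 5.28) hardly separated such cultures. Cdh1, the epithelial cadherin, lay below the floor in all 4 groups, CT26 included. The 4 lymphoid and 4 endothelial markers on the array had mean levels of 4.95 to 5.33 everywhere. Array medians lay between 5.88 and 5.94 log2 units, which means that the values are relative within an array. A change in the total RNA of a cell is therefore not measured, and fewer cells and less RNA per cell cannot be told apart.

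Because many genes of the pathway are known to be bound by MYC at the E-box, the letters CACGTG were looked for in RefSeq promoter windows. The letters are their own reverse complement. The windows, of assembly GRCm38.p6, run from 250 bases before to 50 bases after the start of a gene. A window was given for 33 of the 38 genes listed (none for Fbl, Npm1, Tcof1, Rrp12 and Bop1), and 8 of the 33 (24.2%) held the motif, against 2187 of 27025 genes with a window (8.09%). These 27025 take in genes that were not among the 13196 tested, so they are not matched to the members by expression. In 3 members, Imp4, Nop2 and Rrn3, a match lay before the start site, which is 9.09% of the 33 and close to the 6.86% of all genes with a window (1854). These stretches are shown, read 5′ to 3′ on the strand of the gene with the motif in capitals, because they are the matches upstream of the start; that of Grwd1, the member with the largest difference between the lines, lies after its start.
Imp4, chr1:34439684-34439737, plus strand: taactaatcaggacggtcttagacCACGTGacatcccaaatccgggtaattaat
Nop2, chr6:125131799-125131852, plus strand: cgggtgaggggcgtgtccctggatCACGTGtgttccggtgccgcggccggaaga
Rrn3, chr16:13780627-13780680, plus strand: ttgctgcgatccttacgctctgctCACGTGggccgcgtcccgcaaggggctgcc
Grwd1, chr7:45830740-45830765, minus strand: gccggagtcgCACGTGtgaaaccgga
The motif began 121 bases before the start in Imp4, 60 in Nop2 and 48 in Rrn3, which held another match 215 bases before it, and 35 bases after the start in Grwd1. In Utp20, Pes1, Mybbp1a and Wdr43 the match also lay after the start. A match of letters is a description, not a binding site, and the 25 windows without one say nothing of MYC.

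The plot of all members by array gives the main features at a glance. Columns of the same experiment resembled each other across the groups in rows such as Tcof1, Bop1 and Noc2l, and CT26 columns differed from RAW columns in rows such as Grwd1, Nop14 and Utp20. Differences between co-culture and culture alone ran from -0.22 to 0.46 log2 units over both lines. Every member was well expressed: the lowest lay at the 57.8th percentile of mean level among the tested genes.

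**Figure D1:**
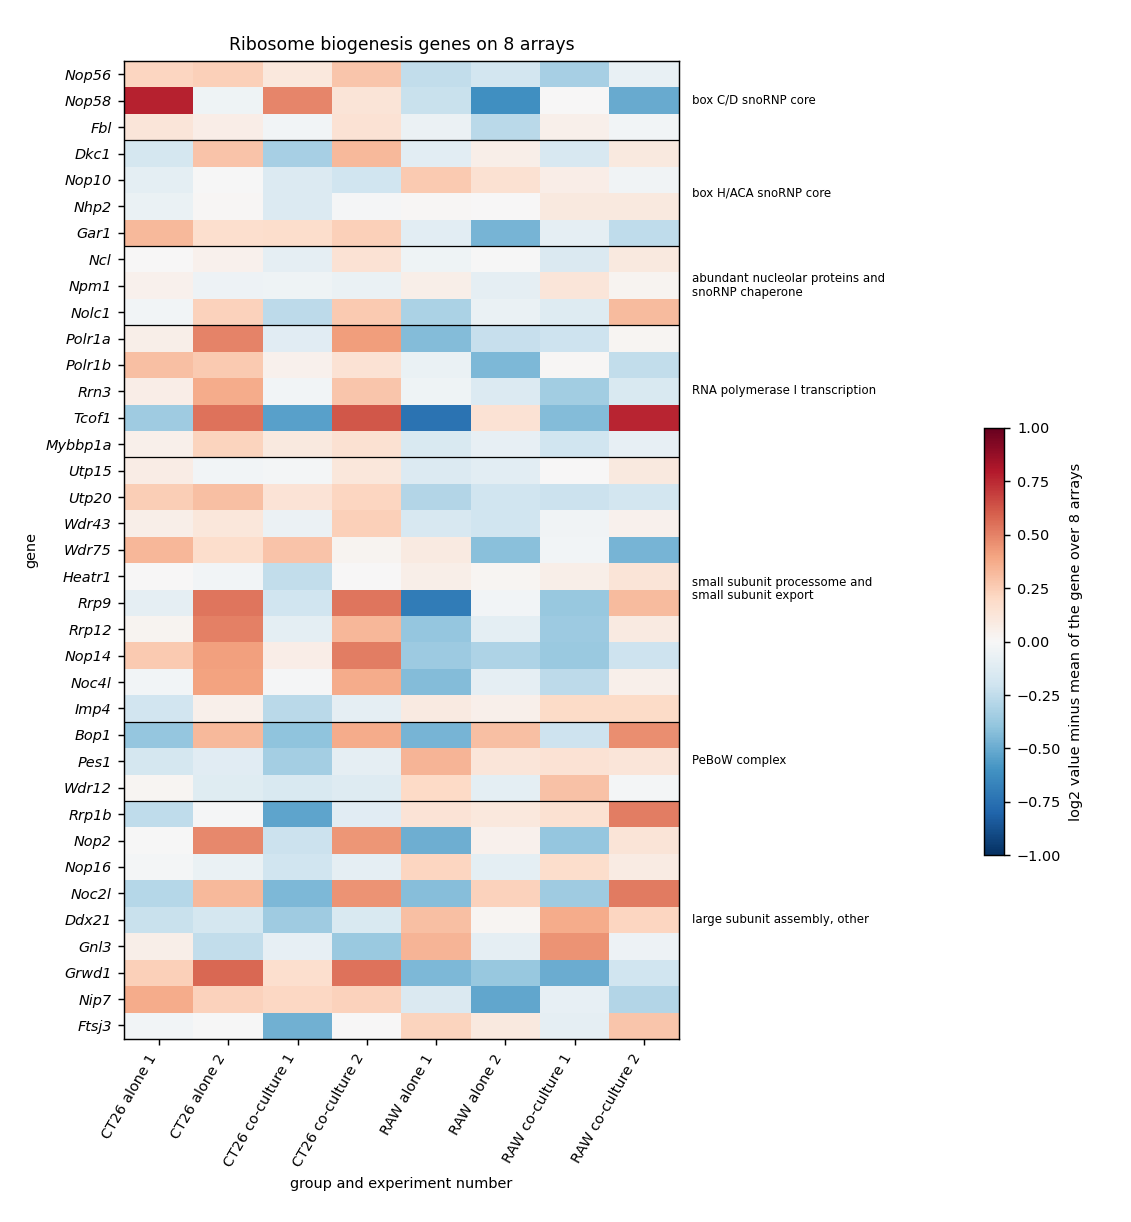
Log2 values of the 37 genes (rows, grouped by role) on the 8 arrays (columns, by group and experiment number), each minus the mean of the gene over the 8 arrays; red is above and blue below that mean. Tcof1, at 8.62 to 9.00 in experiment 1 and 9.50 to 10.12 in experiment 2, alternates between experiments, while Utp20, at 10.89 to 11.06 in CT26 and 10.46 to 10.57 in RAW, separates the lines.

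The first question was whether these genes move in macrophages that share medium with tumour cells. None did past the threshold: 0 of the 37 were called in RAW co-culture against RAW alone, where 0.250% of all tested genes were called (33 of 13196; limma, adjusted p below 0.05), and 0 members against 694 genes had an unadjusted p below 0.05. The values nonetheless leaned up. The median difference over the members was 0.09 log2 units against 0.01 over all genes, 29 of 37 lay above 0, and 25 were higher in both experiments, a pattern seen in 32.5% of all genes, while 4 were lower in both (29.1% of all genes). The members' median was 0.07 in experiment 1 and 0.14 in experiment 2. It was 0.02 when the RAW co-culture array of experiment 2 was left out, which breaks that pair.

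Among the genes that modify rRNA, the C/D core proteins gave differences in RAW of 0.01 to 0.17 log2 units. Fbl, fibrillarin, the ribose methyltransferase of the box C/D particle, stood at 13.07 and 12.86 in RAW alone and at 13.18 and 13.10 in co-culture in experiments 1 and 2. Both co-culture values were above both values alone, yet the difference of 0.17 ± 0.13 (SE) did not pass the test (limma adjusted p = 1), nor did any member named below for RAW. Errors of the co-culture differences come from the fit without a block and take in the shift between experiments. Nop10, a small protein of the pseudouridine-making H/ACA particle, went the other way, from 12.96 and 12.85 alone to 12.76 and 12.66 in co-culture. Its groups did not overlap either, and its difference of -0.20 ± 0.11, the lowest of all members, was almost equal in the 2 experiments (-0.20 and -0.19), while its other probe set gave -0.05. Dkc1, the pseudouridine synthase dyskerin itself, had -0.01 ± 0.26.

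In the RNA polymerase I group the differences spread from -0.16 to 0.46. Polr1a, the largest subunit of the enzyme, read 9.91 and 10.11 alone and 10.14 and 10.36 in co-culture. Its 2 paired differences were nearly alike, 0.23 and 0.24, and its groups did not overlap, although 10.14 lay only just above 10.11. The other Polr1a probe sets above the floor gave 0.25 and 0.08. Rrn3, the factor that recruits the polymerase to its promoter, had 9.58 and 9.49 alone and 9.28 and 9.47 in co-culture, a difference of -0.16 ± 0.17. Tcof1, treacle, a nucleolar cofactor of polymerase I and rRNA modification, had the largest difference of all members. It read 8.62 and 9.50 alone and 8.92 and 10.12 in co-culture, so that each experiment had the higher value in co-culture but the groups overlapped, and the difference was 0.46 ± 0.58, with 0.51 and 0.54 from its other probe sets. With the experiment as a block within each line, its adjusted p was 0.0901, the smallest of the 37 in that fit, and that of Rrp9 was 0.0941.

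The small subunit processome gave the most even picture, with 8 of 10 members higher in both experiments and a median of 0.12. Utp15, one of its early-acting WD-repeat proteins, stood at 10.41 and 10.44 in RAW alone against 10.55 and 10.64 in co-culture, a difference of 0.17 ± 0.12. Wdr43, also a WD-repeat subunit, had 11.26 and 11.22 against 11.38 and 11.46 (0.18 ± 0.13). In both genes the groups were apart, with 0.03 and 0.19 from their other probe sets, and neither passed. Rrp9, a WD-repeat protein of the snoRNP that starts precursor cleavage, differed by 0.33 and 0.34 in the 2 experiments, but its arrays of one group lay far apart: 9.57 and 10.24 alone, and 9.89 and 10.58 in co-culture. Wdr75 was the only one of the 10 lower in both experiments, with 11.45 and 10.94 alone and 11.33 and 10.90 in co-culture (-0.08 ± 0.22).

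Large subunit factors had a median of 0.09, both in the PeBoW complex, the trimer of Pes1, Bop1 and Wdr12 that acts in large subunit maturation, and in the other factors. Rrp1b, a nucleolar partner of large subunit precursors, had 10.31 and 10.28 in RAW alone and 10.32 and 10.68 in co-culture. Its difference of 0.20 ± 0.19 thus came from experiment 2, at 0.40 against 0.01 in experiment 1. Pes1 had 11.74 and 11.52 alone and 11.55 and 11.52 in co-culture (-0.10 ± 0.14), and Ftsj3, an rRNA methyltransferase-like processing factor, 10.01 and 9.88 against 9.69 and 10.06 (-0.07 ± 0.20). In Ftsj3 the experiments opposed each other, at -0.33 and 0.18. Nolc1, a chaperone of snoRNPs, differed by 0.29 ± 0.23, from 11.86 and 12.11 to 12.05 and 12.50, with overlapping groups and with -0.01 and 0.21 from its other probe sets.

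Of the 37 members, 8 had both co-culture arrays above both arrays alone (21.6%, against 14.2% of all genes): Fbl, Nhp2, Polr1a, Utp15, Wdr43, Heatr1, Imp4 and Rrp1b. In Nop10 and Rrn3 the reverse held (5.41%, against 12.3%). The intervals given next come from the fit without a block. Its error takes in the shift between experiments, so they are not intervals of the paired differences. The members' median standard error was 0.16 in that fit and 0.09 with a block per line. Every member's 95% interval of the difference in RAW held 0, and 33 of 37 lay within 1 log2 unit of 0, of which 17 lay within 0.5. Blocking on the experiment also called 0 of 37. The block shared by the lines called 1.11% of all genes, and 3 members against 1625 of 13196 genes had an unadjusted p below 0.05. The block per line called 3.56% of all genes, with 5 members against 2418 genes at such a p.

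**Figure D2:**
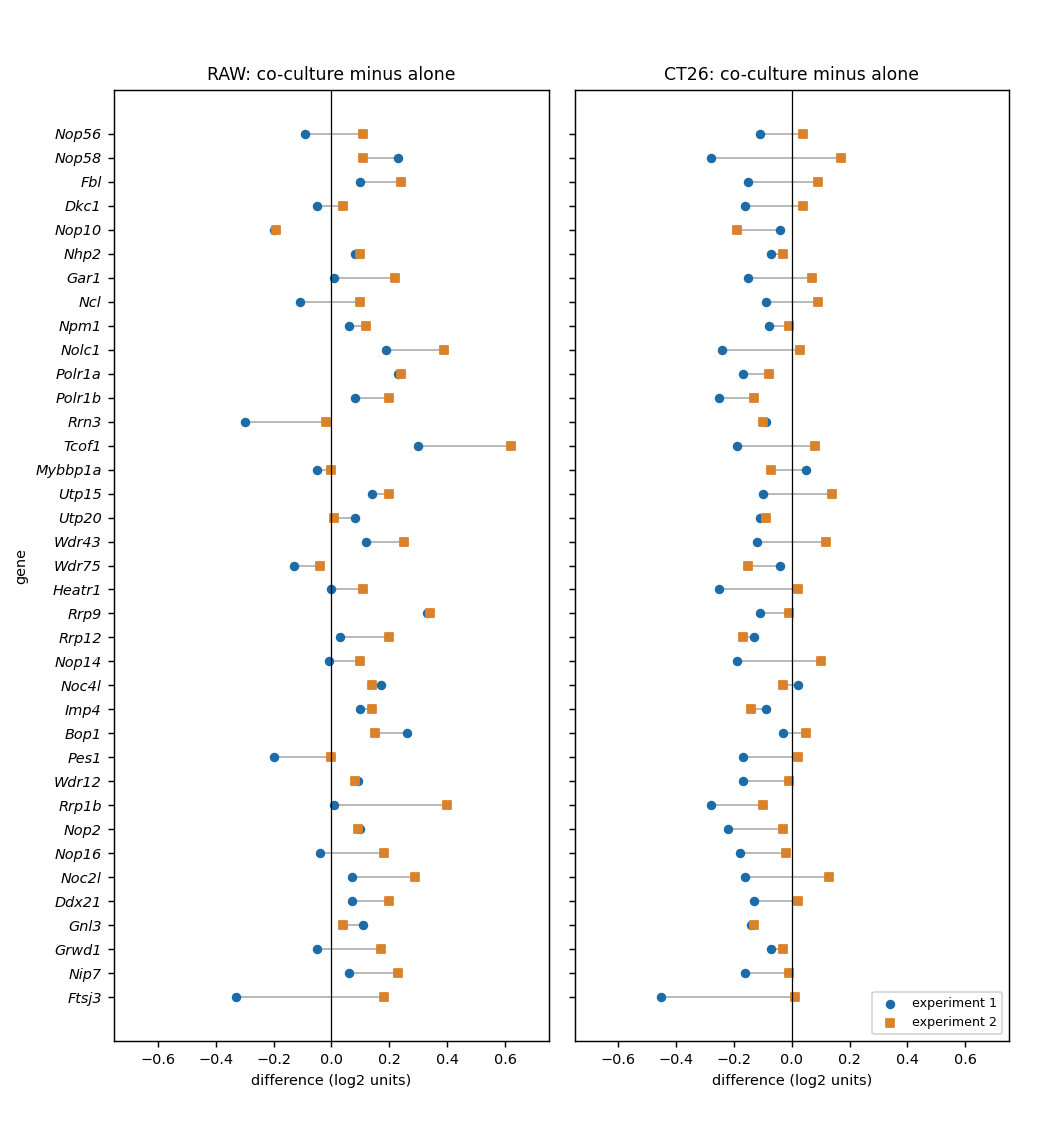
Difference between co-culture and culture alone (log2 units) in RAW (left) and CT26 (right) for each gene, with experiment 1 as a circle and experiment 2 as a square, joined by a line. In RAW 25 of 37 genes lie right of 0 in both experiments; in CT26 18 lie left of 0 in both and experiment 1 lies mostly left of experiment 2.

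In CT26 cells the members leaned the other way, again without a call. Of the 37, 0 passed, as did 0% of all genes (0 of 13196; limma), and 0 members against 107 genes had an unadjusted p below 0.05. The median was -0.06 against -0.01 over all genes, 33 of 37 values lay below 0, 18 were lower in both experiments (30.1% of all genes were) and 0 were higher in both (23.8%). The lean came mostly from experiment 1, where the members' median was -0.14 and 35 of 37 lay below 0. In experiment 2 it was -0.01, with 20 below 0. Without the CT26 co-culture array of experiment 1, which breaks that pair, the median became 0.05.

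The range of the members in CT26 was narrow, from -0.22 in Ftsj3 to 0.02 in Utp15. Ftsj3 itself read 9.76 and 9.78 alone and 9.30 and 9.79 in co-culture, so its difference of -0.22 ± 0.20 rested on 1 array. Polr1b, the second largest polymerase I subunit, had 9.78 and 9.74 alone and 9.52 and 9.62 in co-culture (-0.19 ± 0.16), with both co-culture values below both others. Nop10 had 12.60 and 12.69 alone against 12.56 and 12.50, a difference of -0.11 ± 0.11, and was lower in co-culture in both lines and both experiments. Rrp1b had 9.92 and 10.16 against 9.64 and 10.06 (-0.19 ± 0.19), and Heatr1, a large scaffold of the small subunit processome, 10.62 and 10.59 against 10.37 and 10.62 (-0.11 ± 0.12). The groups overlapped in both.

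At the top of the range stood genes with almost no difference: Bop1 at 0.01 ± 0.41 and Ncl, nucleolin, a most abundant nucleolar RNA-binding protein, whose 13.98 and 14.02 alone met 13.89 and 14.12 in co-culture. Averaging all probe sets of a gene turned the sign of these small values in Utp15 (-0.09), Bop1 (-0.07), Ncl (-0.06) and Wdr43 (-0.07). Groups that did not overlap were found for 6 members, all lower in co-culture (16.2%, against 11.3% of all genes): Nop10, Polr1b, Utp20, Wdr12, Nop16 and Nip7. All 37 intervals of the difference in the fit without a block held 0. Of these, 35 lay within 1 log2 unit of it, and 20 of those within 0.5.

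The comparison that sets the lines against each other is the co-culture difference in RAW minus that in CT26. It called 0 of 37 members, with 0.00758% of all genes called (1 gene; limma), and 0 members against 328 genes had an unadjusted p below 0.05. Its median over the members was 0.17 against 0.02 over all genes, and 29 members were higher in both experiments (34.1% of all genes) and 2 were lower (26.7%). Rrp1b had 0.40 ± 0.28, Nolc1 0.39 ± 0.33, Polr1a 0.36 ± 0.32, Polr1b 0.33 ± 0.23 and Imp4, a protein that pairs the guide RNA with the precursor in the processome, 0.23 ± 0.19. At the other end were Nop10 at -0.08 ± 0.16, Rrn3 at -0.06 ± 0.24, Pes1 at -0.02 ± 0.20 and Mybbp1a and Ncl, both at -0.01. For Polr1a, the other probe sets above the floor gave co-culture differences of 0.25 and 0.08 in RAW, against 0.07 and 0.09 in CT26. By experiment, the median was 0.19 in experiment 1, with 31 of 37 above 0, and 0.13 in experiment 2, with 33 above 0. Leaving out 1 array breaks a pair, so the shift between experiments then enters the difference. The median was then 0.05 without the CT26 co-culture array of experiment 1 and 0.29 without that of experiment 2. It was 0.11 without the CT26 alone array of experiment 2. A shared block called 0 members and 0.0834% of all genes, with 3 members against 888 of 13196 genes at an unadjusted p below 0.05. Blocking within each line called 0 members and 0.743% of all genes. In that fit 6 members against 1508 genes had such a p, and the members' smallest limma adjusted p was 0.262.

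The lines grown alone differed more. This comparison uses the same arrays of cells alone as the co-culture comparisons, so its values are not independent of theirs. In RAW alone against CT26 alone 7 of 37 members were called, all lower in RAW: Grwd1, Nop14, Nip7, Polr1b, Gar1, Utp20 and Nop56. That is 18.9% of the members, where 34.6% of all tested genes were called in either direction and 17.6% were called lower (limma, adjusted p below 0.05), so the share of lower calls was near the background and no member was called higher. The members' median was -0.25 against -0.05 over all genes, and 26 of 37 lay below 0. Paired by experiment, 24 were lower in both (45.3% of all genes) and 8 higher (37.4%). In 19 members both RAW values lay below both CT26 values (51.4%, against 37.1% of all genes), and in 6 they lay above (16.2%, against 30.2%).

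The called members came from 5 of the 7 roles. Grwd1, a WD-repeat factor that brings ribosomal proteins into the large subunit, had the largest difference: 11.15 and 11.48 in CT26 alone and 10.46 and 10.53 in RAW alone. The groups were far apart and the gene was 1.76-fold lower in RAW (-0.82 ± 0.19, limma adjusted p = 0.0138). Its 2 other probe sets gave -0.59 and -0.77. Nip7, an assembly factor of the large subunit, had 12.20 and 12.06 in CT26 and 11.69 and 11.31 in RAW, a difference of -0.63 ± 0.16 (adjusted p = 0.0207), and its other probe set gave -0.70.

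In the small subunit processome 2 of 10 were lower. Nop14, which works with Noc4l in precursor cleavage, read 10.36 and 10.51 in CT26 and 9.74 and 9.79 in RAW (-0.67 ± 0.17, limma adjusted p = 0.0208). Utp20, a very large scaffold protein, had 11 and 11.06 against 10.46 and 10.56 (-0.52 ± 0.11, limma adjusted p = 0.00999). Arrays of one line differed by no more than 0.15 in either gene, well under the gap between the lines. Rrp9 and Rrp12, an export factor of small subunit precursors, had -0.59 ± 0.38 and -0.51 ± 0.25 and did not pass without a block.

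Of the genes for rRNA modification, Nop56, a scaffold of the box C/D particle, was lower in RAW at 11.87 and 11.93 against 12.33 and 12.35 (-0.44 ± 0.13, limma adjusted p = 0.0406), and its other probe set gave -0.48. Nop58, its partner in the particle, had a larger difference, -0.78 ± 0.31, but 12.59 and 11.78 in CT26 against 11.60 and 11.21 in RAW spread too widely to pass. Gar1, a core protein of the H/ACA particle, was lower at 11.65 and 11.29 against 12.08 and 11.92 (-0.53 ± 0.16, limma adjusted p = 0.0355). Among the other H/ACA proteins Dkc1 had -0.08 ± 0.26, Nhp2 0.03 ± 0.11 and Nop10 0.26 ± 0.11, none past the threshold.

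All 5 genes of polymerase I transcription lay lower in RAW in both experiments, with mean differences from -0.61 to -0.25 log2 units. Polr1b passed, with 9.78 and 9.74 in CT26 and 9.41 and 9.03 in RAW (-0.54 ± 0.16, limma adjusted p = 0.0421). Polr1a read 10.40 and 10.84 against 9.91 and 10.11, and Mybbp1a, a nucleolar protein that binds MYB, 12.80 and 12.97 against 12.60 and 12.67. Neither overlapped between the lines, and neither passed without a block. Other probe sets above the floor gave -0.35 and -0.32 in Polr1a and -0.47 in Mybbp1a.

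A few members leaned up in RAW. Pes1 had 11.23 and 11.29 in CT26 and 11.74 and 11.52 in RAW (0.37 ± 0.14, limma adjusted p = 0.0817), but another of its probe sets, of lower signal, gave -0.79, so its direction depends on the probe set. Ddx21, a nucleolar RNA helicase, had 10.62 and 10.67 against 11.14 and 10.86 (0.35 ± 0.15, limma adjusted p = 0.108), and its other probe set gave 0.39. Nop10, Rrp1b and Imp4 followed at 0.26, 0.25 and 0.14, none past the threshold. Their other probe sets gave 0.01 in Nop10, 0.15 and -0.11 in Rrp1b, and 0.27 and -0.30 in Imp4. Npm1, nucleophosmin, a histone and ribosome chaperone of the nucleolus, had -0.01 with a 95% interval of -0.28 to 0.27, and Ncl -0.05 with -0.37 to 0.28.

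How many members count as different turned on how the shift between experiments was handled. With the experiment as a block shared by the lines, 17 members were called, 1 higher and 16 lower, where 52.9% of all genes were called, 25.5% higher and 27.4% lower. Blocking within each line gave 22, of which 3 were higher (Pes1, Ddx21 and Nop10) and 19 lower, where 58.6% of all genes were called, 28.3% higher and 30.4% lower. In that fit 5 of 5 polymerase I genes, 7 of 10 small subunit genes, 2 of 3 C/D proteins, 3 of 9 other large subunit factors, 1 of 4 H/ACA proteins, 1 of 3 in the group of Ncl, Npm1 and Nolc1, and 0 of 3 PeBoW genes were lower. Rrp9, for example, went from a limma adjusted p of 0.293 to 0.000774, and Nop58 from 0.103 to 0.00116. Without a block, leaving out arrays lowered the 7 calls to 2 (without CT26 alone 1), 1 (without CT26 alone 2), 4 (without either CT26 co-culture array), 3 (without RAW alone 1) and 2 (without RAW alone 2).

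**Figure D3:**
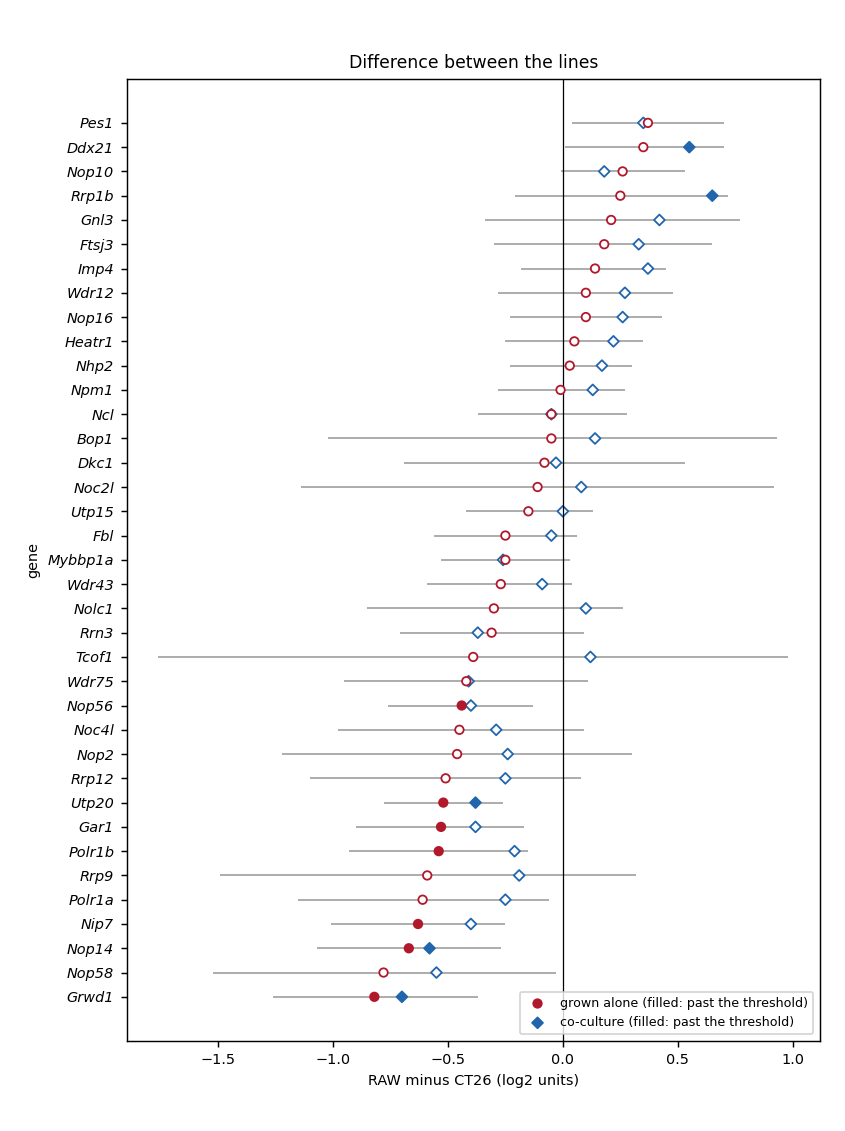
Difference between RAW and CT26 (log2 units) for each gene grown alone (circles, with the 95% interval) and in co-culture (diamonds); filled symbols passed the threshold without a block. Grwd1 (-0.82), Nop14 (-0.67) and Utp20 (-0.52) are filled in both conditions, while Rrp1b and Ddx21 are filled in co-culture, at 0.65 and 0.55.

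In co-culture the lines differed in 5 of 37 members (13.5%, against 34.8% of all genes in either direction; limma). Grwd1, Nop14 and Utp20 were again lower in RAW, with 10.41 and 10.71 against 11.08 and 11.45 in Grwd1 (-0.70 ± 0.19, adjusted p = 0.0254), 9.73 and 9.89 against 10.17 and 10.61 in Nop14 (-0.58 ± 0.17), and 10.54 and 10.57 against 10.89 and 10.97 in Utp20 (-0.38 ± 0.11). These arrays are not those of the cells grown alone, so the means of these 3 genes come from separate samples of the same 2 experiments. Both comparisons use the same estimate of each gene's spread, from all 8 arrays, so their calls are not independent. Lower calls made up 8.11% of the members and 17.0% of all genes.

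Rrp1b and Ddx21 were higher in RAW co-culture. Rrp1b read 10.32 and 10.68 in RAW and 9.64 and 10.06 in CT26 (0.65 ± 0.19, limma adjusted p = 0.0399), and Ddx21 11.21 and 11.06 against 10.49 and 10.69 (0.55 ± 0.15, limma adjusted p = 0.0254). In both the groups stood apart. Another probe set of Rrp1b gave 0.14 and a further one 0.27, against 0.72 for the other probe set of Ddx21, so that the size of the difference in Rrp1b depends on the probe set. Higher calls made up 5.41% of the members and 17.7% of all genes.

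The members' median in this comparison, -0.05, was close to the -0.04 of all genes, while the lines grown alone had -0.25. Gene by gene, the step from one comparison to the other is the co-culture difference in RAW minus that in CT26 given above, which called no member. Imp4 (0.37 ± 0.13), Pes1 (0.35 ± 0.14) and Nop16, a large subunit factor (0.26 ± 0.14), were next among the higher values and did not pass, nor did Nop56 and Nip7, both at -0.40. By experiment, 16 members were higher in both (39.2% of all genes) and 17 lower in both (44.4%). In 11 members the RAW values lay above the CT26 values on all arrays (29.7%, against 30.5% of all genes) and in 11 below (35% of all genes). A shared block called 15 members, 4 of them higher and 11 lower, against 52.1% of all genes (26.2% higher, 25.9% lower). Blocking within each line called 19, with 6 higher and 13 lower, against 58.0% (29.0% and 28.9%). Without a block, there was 1 call when RAW co-culture 1 was left out and there were 2 when any other of the 8 arrays was.

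The largest single difference of any member, 1.04 log2 units in Tcof1, lay between the 2 experiments. The median over the members lay further from 0 between the lines grown alone, at -0.25 against 0.10 between the experiments. Fitted over all 4 groups at once, 14 of 37 members (37.8%) differed between experiment 2 and experiment 1, against 28.1% of all genes (limma, adjusted p below 0.05). The calls were 11 higher in experiment 2 (29.7% of the members, 16.8% of all genes) and 3 lower (8.11%, against 11.3%). The members' median standard error was 0.08 here, against 0.16 between the lines without a block, so the counts of calls are not directly comparable. Because each experiment was done once, what differed between the occasions cannot be told apart from culture, harvest or array handling.

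Tcof1 led by a distance. Its arrays of experiment 1 read 9.00 and 8.81 in CT26 (alone, then co-culture) and 8.62 and 8.92 in RAW, and in the same order those of experiment 2 read 9.90, 9.98, 9.50 and 10.12. Every value of experiment 2 lay above every value of experiment 1, a 2.05-fold shift (1.04 ± 0.08 log2 units, limma adjusted p = 0.0011). Its 2 other probe sets gave 1.33 and 0.94. Polr1a, in the same role, shifted by 0.35 ± 0.08, while Polr1b had -0.14 ± 0.09 and did not pass.

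Large subunit factors followed. Noc2l, a partner of nucleolar export complexes, had 9.91, 9.75, 9.77 and 9.84 in experiment 1 and 10.52, 10.65, 10.43 and 10.72 in experiment 2 (0.76 ± 0.08), but its dimmer probe set gave -0.20. Bop1 had 10.40, 10.38, 10.32 and 10.58 against 11.11, 11.16, 11.09 and 11.25 (0.73 ± 0.06), with 0.18 from its dimmer probe set. In the probe sets used, both genes were nearly equal in all 4 groups of an experiment. The dimmer probe sets were higher in RAW than in CT26. They gave 0.89 alone and 1.17 in co-culture for Noc2l, and 1.49 and 1.79 for Bop1. The other PeBoW proteins had 0.01 ± 0.09 in Pes1 and -0.18 ± 0.08 in Wdr12, neither past the threshold. Nop2, an rRNA cytosine methyltransferase, shifted from 11.16, 10.95, 10.68 and 10.78 to 11.65, 11.61, 11.21 and 11.30 (0.55 ± 0.06), and Grwd1 by 0.27 ± 0.07.

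In the small subunit group Rrp9 shifted by 0.68 ± 0.06, with 0.63 to 0.73 in each of the 4 groups. Rrp12 followed at 0.41 ± 0.07, from 8.92, 8.79, 8.50 and 8.53 to 9.39, 9.22, 8.79 and 8.98. Noc4l had 0.36 ± 0.06, yet its probe sets split, with 0.32 in one and -0.46 and -0.51 in the other two. Dkc1 was higher by 0.39 ± 0.10 and had -0.53 in another of its 3 probe sets, and Nolc1 by 0.37 ± 0.07, with 0.44 and 0.33 in the others. Mybbp1a, not called at 0.10 ± 0.06, had 0.68 in its other probe set.

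Lower in experiment 2 were Nop58, Gnl3 and Wdr75. Nop58 had 12.59, 12.31, 11.60 and 11.83 in experiment 1 and 11.78, 11.95, 11.21 and 11.32 in experiment 2, lower within every group (-0.52 ± 0.09). Gnl3, the nucleolar GTPase nucleostemin, had 12.28, 12.14, 12.56 and 12.67 against 11.98, 11.85, 12.13 and 12.17 (-0.38 ± 0.07). Wdr75 had 11.69, 11.65, 11.45 and 11.33 against 11.54, 11.39, 10.94 and 10.90 (-0.34 ± 0.08), and its dimmer probe set gave -0.30. Nop56, the partner of Nop58 in the box C/D particle, had 0.13 ± 0.07 and was not called.

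The shift had the same sign in all 4 groups in 20 members, 16 higher (24.9% of all genes were) and 4 lower (21.8%). Its median was 0.10 over the members and 0.01 over all genes. By group it was 0.06 in CT26 alone, 0.22 in CT26 co-culture, -0.03 in RAW alone and 0.09 in RAW co-culture. Fitted within each line, 13 members were called in CT26, 11 higher and 2 lower (19.9% of all genes were called), and 13 in RAW, 8 higher and 5 lower (31.0%). The difference of the shift between the lines was called in 0 members (limma, 2.04% of all genes). An unadjusted p below 0.05 was found in 3 members, a count not made over all genes. Leaving out either CT26 co-culture array gave 9 calls over the 4 groups in place of 14. Control probe sets moved with the experiments too: those for 18S rRNA were lower in experiment 2 in 4 of 4 groups, with mean differences of -0.46 (3′), -0.88 (middle) and -1.48 (5′) log2 units, and their part in the members' shift was not tested.

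**Figure D4:**
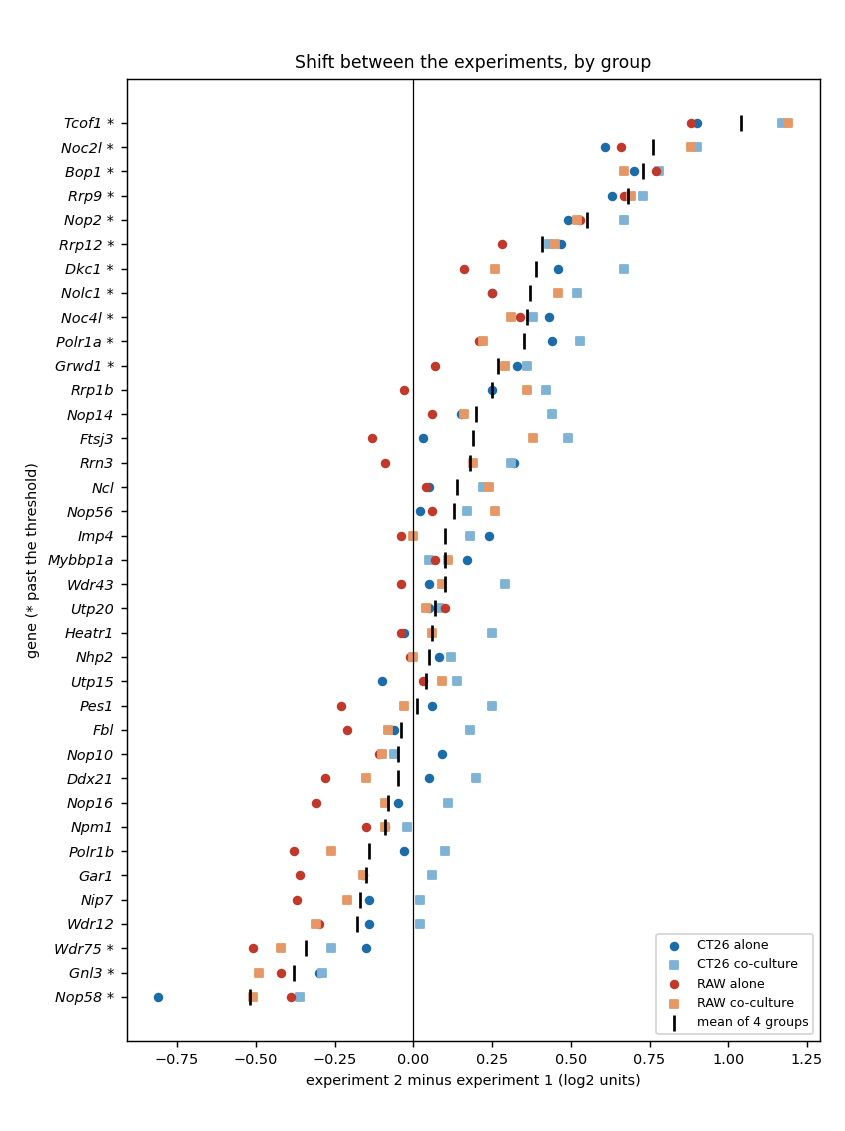
Experiment 2 minus experiment 1 (log2 units) for each gene in each of the 4 groups (coloured symbols) and their mean (bar), with genes ordered by the mean and an asterisk where it passed the threshold. Tcof1 lies at 0.88 to 1.19 and Rrp9 at 0.63 to 0.73 in the 4 groups, and Nop58 at -0.81 to -0.36.

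The rest of the pathway was read from lists of further genes. Of 12 other polymerase I subunits and rDNA factors, 44 other small subunit factors, 47 other large subunit factors, 15 exosome and trimming genes and 43 ribosomal protein genes tested, 0 were called in either line on co-culture (limma without a block). At an unadjusted p below 0.05 there was 1 gene in each of the last 4 lists in RAW, and 0 in CT26. Blocking within each line called 1 gene of these lists, Ddx24, a large subunit helicase, higher in RAW co-culture (0.45 ± 0.09, limma adjusted p = 0.0478), and 0 in CT26. Their medians in RAW were 0.07, 0.05, 0.08, 0.13 and 0.03, and in CT26 they were -0.08, -0.08, -0.08, -0.04 and -0.01. The non-member assembly factors thus had small medians of the same sign as the members in each line, and the ribosomal proteins lay near 0. Only 44 of the 79 ribosomal protein genes listed had a probe set of their own.

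Between the lines grown alone the largest single differences of the pathway lay outside the members, in lists that together hold more genes. By median the members stood at -0.25 and the polymerase I list at -0.27. The small and large subunit lists had -0.11 and -0.08, the exosome list -0.17 and ribosomal proteins -0.09. Among large subunit factors 9 of 47 were lower in RAW (19.1%, against 17.6% of all genes) and 1 was higher (2.13%, against 17.0%). Lyar, a nucleolar growth regulator, stood at 12.68 and 12.75 in CT26 alone and 11.25 and 10.95 in RAW alone (-1.61 ± 0.14), and Urb2 and Ddx27, a helicase, had -1.36 ± 0.12 and -1.26 ± 0.21. Among small subunit factors 7 of 44 were lower (15.9%), led by Ruvbl2, an ATPase of snoRNP assembly (-0.88 ± 0.13), and 2 higher (4.55%), Ddx10 (0.85 ± 0.13) and Imp3 (0.79 ± 0.23). Of the 12 polymerase I genes 3 were lower, Taf1a (-0.86 ± 0.14), Polr1c (-0.63 ± 0.17) and Znrd1 (-0.60 ± 0.14), and Twistnb was higher (0.65 ± 0.11). Exosc5 was the one exosome gene called, at 0.68 ± 0.13, and of the ribosomal proteins Rpl12 (-1.09 ± 0.12) and Rpl14 (-0.80 ± 0.21) were lower. All of these calls had a limma adjusted p below the threshold, and the shares of lower calls among the assembly factors lay near that of all genes. Blocking within each line called 8 higher and 16 lower large subunit factors, 3 and 11 small subunit factors, 2 and 6 polymerase I genes, 3 and 4 exosome genes and 1 and 6 ribosomal proteins, where 28.3% of all genes were called higher and 30.4% lower.

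Between the experiments, Ubtf, the architectural factor of rDNA, was higher in experiment 2, by 0.54 ± 0.06 (limma adjusted p = 0.00245). Other assembly factors split, with 6 higher and 9 lower among 44 small subunit factors (13.6% and 20.5%) and 12 higher and 10 lower among 47 large subunit factors (25.5% and 21.3%), where 16.8% of all genes were higher and 11.3% lower. Wdr46 (0.67 ± 0.11), Tbl3 (0.57 ± 0.07), Senp3 (0.55 ± 0.07) and Nol6 (0.51 ± 0.07) were higher, and Tex10 (-0.53 ± 0.09) and Riok2 (-0.42 ± 0.08) were lower. The exosome list had 1 higher and 4 lower, with Dis3, a catalytic subunit, at -0.54 ± 0.09, and ribosomal proteins had 4 lower and 0 higher.

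**Figure D5:**
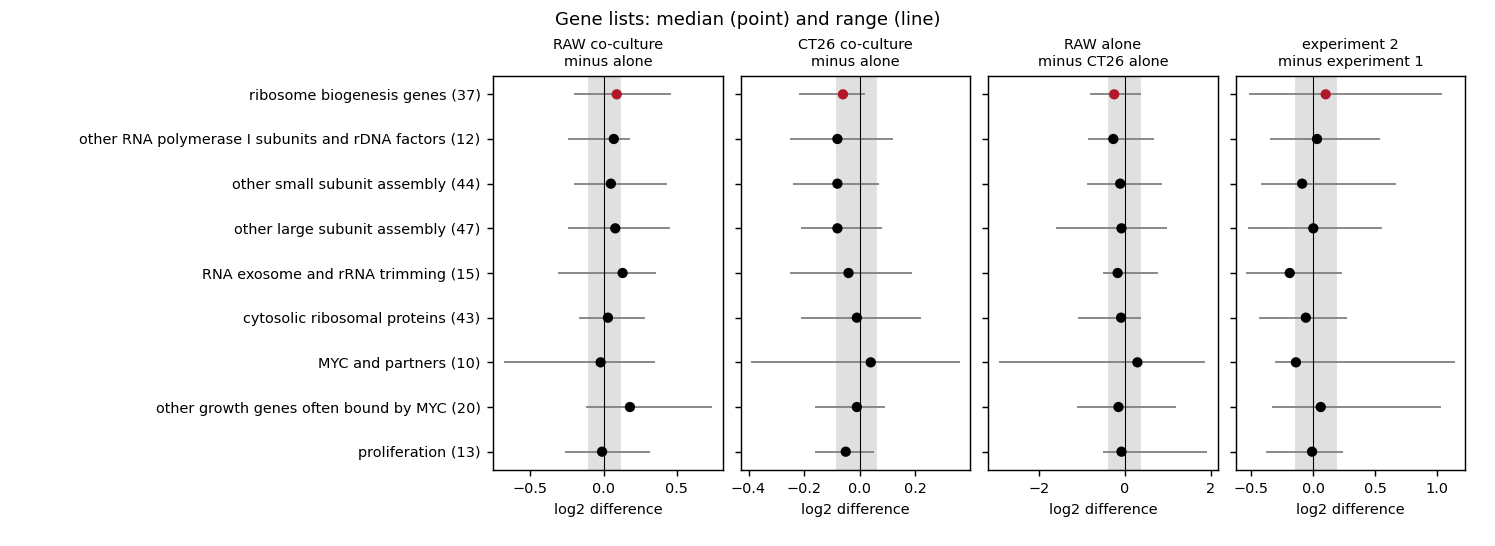
Median (point) and range (line) of the log2 difference over the tested genes of each list (number in brackets) in 4 comparisons; the grey band spans the middle part of all 13196 genes, from the lower to the upper quartile. The members (red) have medians of 0.09, -0.06, -0.25 and 0.10 from left to right.

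MYC, the regulator most often linked to these genes, was measured on the same arrays. Myc read 10.18 and 10.88 in CT26 alone, 10.52 and 10.96 in CT26 co-culture. In RAW it had 6.59 and 8.60 alone and 6.22 and 7.62 in co-culture. All RAW values lay below all CT26 values, with a difference of -2.93 ± 0.71 alone (limma adjusted p = 0.0171) and -3.82 ± 0.71 in co-culture (limma adjusted p = 0.00546). In RAW its co-culture difference was -0.68 ± 0.71, which did not pass (limma adjusted p = 1, and 0.0645 when blocked within each line). Whether the level of Myc bears on the values of the members was not tested. Myc was also higher in experiment 2, by 1.14 ± 0.24 (limma adjusted p = 0.0158).

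Of 10 tested genes of MYC and its partners, 2 were higher and 2 lower in RAW alone. Each was 20.0% of the list, against 17.0% of all genes called higher and 17.6% called lower. Blocking within each line called 5 higher and 3 lower, against 28.3% and 30.4% of all genes. Mycn, a close relative of Myc, was among the higher. It read 13.30 and 13.46 in CT26 alone and 15.18 and 15.28 in RAW alone (1.85 ± 0.13, limma adjusted p = 3.87e-05). Its 2 other probe sets gave 6.19, with the CT26 arrays below the floor, and 6.33, so the size of its difference depends on the probe set but not its direction. Max, the partner of both, had 0.03 ± 0.37 between the lines, and of the antagonists of the family Mnt was higher in RAW (1.09 ± 0.19) and Mxd3 lower (-1.65 ± 0.15). Of 20 other growth genes often bound by MYC, 6 were lower in RAW alone (7 when blocked within each line), led by Shmt2 (-1.12 ± 0.26) and Odc1 (-1.05 ± 0.26), and 2 were higher (4 when so blocked), Tfrc (1.18 ± 0.11) and Apex1 (0.55 ± 0.11). Their co-culture median in RAW was 0.18, with 0 called without a block (limma) and 3 at an unadjusted p below 0.05. Blocking within each line called Nampt, an enzyme of NAD synthesis, higher in RAW co-culture (0.74 ± 0.09, limma adjusted p = 0.00943), and Mxd4, of the MYC family's antagonists, lower (-0.53 ± 0.09, limma adjusted p = 0.0292). Cad, which starts pyrimidine synthesis, was higher in experiment 2 by 1.03 ± 0.08, and Srm, spermidine synthase, by 0.65 ± 0.07.

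Proliferation genes had 0 calls among 13 on co-culture in either line (limma; at an unadjusted p below 0.05, 1 in RAW and 0 in CT26), with medians of -0.01 in RAW and -0.05 in CT26. Between the lines grown alone Mki67 was higher in RAW (1.91 ± 0.12) and Mcm2 lower (-0.51 ± 0.12), with a median of -0.08 over the list. Each was 7.69% of the 13, against 17.0% of all genes called higher and 17.6% called lower. Blocking within each line called 2 higher and 5 lower, against 28.3% and 30.4% of all genes. Whether these differences bear on those of the members was not tested.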

How the data were processed

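Total RNA of 8 cell line samples, in 4 groups of 2, was measured on single-colour Affymetrix arrays. The deposited values are log2 expression values that the authors made by RMA with affy, per the submitters' processing notes; no version is given there. RMA sets all arrays to nearly the same distribution, and precision is limited by the number of arrays. The members, lists and tests were chosen with earlier results of these data known.

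Of 45101 probe sets, 64 controls were left out. Of the other 45037, 34945 had 1 gene symbol in the platform annotation, 932 several and 9160 none listed. Entrez identifiers of 34741 matched the RefSeq table of GRCm38.p6, and 0 symbols changed. No genome build is stated for the arrays; printed coordinates belong to the RefSeq windows. A gene was represented by its brightest probe set annotated to no other gene. It entered the tests where that probe set exceeded a floor, the 40th percentile of each array (5.21 to 5.28), on both arrays of at least 1 group, which left 13196 genes. Of the members 11 had 1 probe set and 26 several.

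Group means of the 8 arrays were estimated in 1 model with limma 3.58.1 (R 4.3.3), without a block and with 4 residual degrees of freedom. All tests were two-sided, and p-values were adjusted by Benjamini-Hochberg over all tested genes and a threshold of 0.05. Errors are standard errors of the model. The shift between experiments came from a fit of group and experiment (3 residual degrees of freedom). Replicate numbers mark the 2 occasions in the labels, and deviations of same-numbered arrays correlated at 0.484 to 0.765 in every pair of groups, so they were taken to pair the samples. Alternatives were the experiment as a block (shared or per line), cyclic loess, the mean of all probe sets, no or a stricter filter (60th percentile), a variance trend, each line alone and each array left out.

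Named in each comparison were members past the threshold, at most 10 per direction, filled to 5 by the largest moderated statistics and then given as not past it. From each other list at most 3 per direction past the threshold were named, and Myc, Mycn, Max and Ubtf always.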

Additional observations from a re-analysis of the deposited data

Results flagged for a closer look

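Signal was seen in control probe sets outside the gene measurements. The 18S rRNA control probe sets had mean values over the 8 arrays of 8.38 (3′), 8.2 (middle) and 7.69 (5′) log2 units, above the 4.4 that the negative controls reached at most. The 5′ set read 9.17, 9.05, 7.81 and 7.68 in experiment 1 and 6.73, 6.8, 7.51 and 6.75 in experiment 2, in each case CT26 alone and in co-culture before RAW alone and in co-culture. These are signals of the labelled sample and no measure of the amount of rRNA in the cells.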

How the results depend on the processing

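Without a block, the co-culture intervals of 17 (RAW) and 20 (CT26) of 37 members lay within 0.5 log2 units of 0. There were 2 arrays a group, and the arrays do not measure total RNA. Leaving out 1 array in a fit without a block breaks a pair. The group differences given below for such fits therefore also take in part of the shift between experiments. The members' co-culture counts of 0 held under all alternatives run, the replicate block included. The block called 17 (shared) or 22 (per line) members instead of 7 between the lines alone and 15 or 19 instead of 5 in co-culture; its calls in the other gene lists are given beside theirs. Cyclic loess gave 0.12 in place of 0.17 as the median of the RAW effect minus the CT26 effect. The mean of all probe sets turned the sign of Utp15 (-0.09), Bop1 (-0.07), Ncl (-0.06) and Wdr43 (-0.07) in CT26 co-culture, of Nop10 (0.07), Mybbp1a (0.04) and Ncl (0.05) in the RAW effect minus the CT26 effect, of Pes1 between the lines (-0.21 alone and -0.21 in co-culture) and of Noc4l between experiments (-0.07); the cause was not tested. With 1 array left out, a lone array being assumed to vary like the other groups, counts ranged from 1 to 7 (lines alone), 1 to 2 (co-culture) and 9 to 14 (experiments), and medians from 0.02 to 0.12 (RAW), -0.19 to 0.05 (CT26), 0.05 to 0.29 (RAW effect minus CT26 effect), -0.35 to -0.16 (lines alone) and -0.26 to 0.09 (lines in co-culture). The sign of small single values also turned then, over these ranges: in RAW Pes1 (-0.21 to 0.02), Wdr75 (-0.34 to 0.17) and Ftsj3 (-0.26 to 0.12); in CT26 Utp15 (-0.05 to 0.09), Bop1 (-0.38 to 0.40), Ncl (-0.11 to 0.12), Wdr43 (-0.15 to 0.15), Ftsj3 (-0.47 to 0.02), Rrp1b (-0.40 to 0.02) and Heatr1 (-0.24 to 0.01); and in the RAW effect minus the CT26 effect Rrn3 (-0.22 to 0.10), Pes1 (-0.14 to 0.11), Mybbp1a (-0.10 to 0.07) and Ncl (-0.13 to 0.11).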
